A study of Mus musculus with 24 samples.

Results

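The genes described here encode subunits of the 5 complexes of oxidative phosphorylation. They were chosen by symbol: single-symbol probe sets whose annotated gene starts with Ndufa, Ndufb, Ndufc, Ndufs or Ndufv and a digit, is Sdha, Sdhb, Sdhc or Sdhd, or starts with Uqcr, with Cox4 to Cox8, or with Atp5. Where a gene had several probe sets, the brightest on average across the arrays stood for it. This gave 81 of 19937 genes on the array: 35 of complex I, 4 of complex II, 8 of complex III, 17 of complex IV and 17 of complex V. Ndufa4 is grouped with complex I by its symbol, although it is now placed in complex IV. Of the 81 genes 65 had 1 probe set and 16 had several.

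The arrays came from the whole hypothalamus of male mice of an inbred hypertensive strain, BPH/2J, and of BPN/3J, the normotensive strain set against it. The study's design text once gives the suffix of the second strain as 2J, and the sample labels were followed. The groups were BPH/2J at 26 weeks, BPN/3J at 26 weeks, BPH/2J at 6 weeks and BPN/3J at 6 weeks, with 6 mice and 6 arrays each. All mice had standard housing, tissue was taken at the daily peak of blood pressure, and animals were not pooled. Each total RNA sample was run on an Affymetrix Mouse Gene 1.0 ST array. Each strain stands for its genotype as a whole, so that a strain difference is not tied to blood pressure or to any allele.

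Oxidative phosphorylation takes place in the inner membrane of the mitochondrion. Complex I oxidises NADH and complex II oxidises succinate, both pass electrons through ubiquinone to complex III, cytochrome c carries them to complex IV, which reduces oxygen, and complex V uses the proton gradient to make ATP. Neurons draw most of their ATP from this chain. Some subunits have isoforms kept to muscle or testis, and these are among the genes counted here.

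Values are RMA values on the log2 scale and are relative to the other genes of an array. Array medians lay between 5.89 and 6.09. On all 24 arrays 80 of the 81 genes were above the array's median of unnamed probe sets, which lay between 4.60 and 5.25, and Cox7b2 was above it on 19. All 11 measured markers of the hypothalamus, such as the peptide genes Avp, Oxt, Hcrt and Pmch, were above it on all 24 arrays. A list of 14 thalamus markers averaged 8.75 ± 0.54 in BPH/2J and 9.66 ± 0.12 in BPN/3J at 6 weeks (SD, n = 6 each), and 9.67 ± 0.08 in BPH/2J and 9.67 ± 0.27 in BPN/3J at 26 weeks. In 6-week BPH/2J the arrays ran from 8.12 to 9.59 for this list. At 26 weeks, replicates 5 and 6 of each strain stood apart from replicates 1 to 4 for many genes, and no label says why. The tissue is bulk, so fewer cells of a type and less RNA per cell cannot be told apart.

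RefSeq promoter windows of 300 bases (250 before and 50 after the annotated start, GRCm38.p6) were at hand for 66 of the 81 genes. Binding strings of 3 factors known for nuclear genes of mitochondrial proteins were searched on both strands. A gene with several windows counted once if any of them held the string. The NRF1 string GCATGCGC was found for 10 of the 66 genes (15.2%) and for 3.05% of all 27025 genes with a window. The GABP string CCGGAAG was found for 17 (25.8%) and for 9.93% of all, and the YY1 string AAGATGGC for 10 (15.2%) and for 3.19% of all. The GABP and YY1 strings can share the letters AAG. At least 1 of the strings was found for 31 of the 66 genes (47.0%) and for 14.9% of all.

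The 150 bases before the start are shown for 3 genes whose levels differed between the strains (Ndufa3, Uqcr10, Sdhb) and 3 that were higher at 26 than at 6 weeks in BPH/2J (Uqcrh, Cox6a1, Atp5e). Each is given 5′ to 3′ on the gene's own strand, with a match to any of the 3 strings, or to its reverse complement, in capitals.
Ndufa3, chr7:3617223-3617372, plus strand: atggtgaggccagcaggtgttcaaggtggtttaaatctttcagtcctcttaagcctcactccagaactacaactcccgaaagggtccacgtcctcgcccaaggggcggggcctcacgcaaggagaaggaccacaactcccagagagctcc
Uqcr10, chr11:4704345-4704494, minus strand: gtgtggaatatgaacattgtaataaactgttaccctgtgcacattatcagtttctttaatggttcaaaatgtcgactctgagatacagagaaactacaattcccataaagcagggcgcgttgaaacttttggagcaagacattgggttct
Sdhb, chr4:140961121-140961270, plus strand: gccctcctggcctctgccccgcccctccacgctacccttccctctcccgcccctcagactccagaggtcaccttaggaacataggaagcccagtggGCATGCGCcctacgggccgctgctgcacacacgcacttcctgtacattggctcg
Uqcrh, chr4:116075071-116075220, minus strand: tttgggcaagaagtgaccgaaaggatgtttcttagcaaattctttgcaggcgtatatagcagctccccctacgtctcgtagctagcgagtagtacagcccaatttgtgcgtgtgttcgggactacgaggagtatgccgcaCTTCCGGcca
Cox6a1, chr5:115348959-115349108, minus strand: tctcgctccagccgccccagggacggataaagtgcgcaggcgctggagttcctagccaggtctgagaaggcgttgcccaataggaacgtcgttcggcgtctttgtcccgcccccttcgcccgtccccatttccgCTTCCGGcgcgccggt
Atp5e, chr2:174464102-174464251, minus strand: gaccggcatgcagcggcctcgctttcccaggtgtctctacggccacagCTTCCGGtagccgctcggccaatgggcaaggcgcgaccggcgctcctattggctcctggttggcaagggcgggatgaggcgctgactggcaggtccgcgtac
In these stretches Sdhb held an NRF1 string, Uqcrh, Cox6a1 and Atp5e held a GABP string, and the stretches of Ndufa3 and Uqcr10 held none of the 3. The match in Sdhb is on the strand shown, and the others are on the opposite strand. Outside these stretches the 300-base windows held a YY1 string for Ndufa3, a GABP string for Sdhb and an NRF1 string for Cox6a1. The window of Uqcr10 held none. The 6 genes shown are examples picked by hand and not by a rule. Ndufb10, Cox7b2 and Ndufa1 also rose with age in BPH/2J, and their windows held none of the 3 strings. Whether a string goes with a change in level was not tested.

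Averaged over the 81 genes, each taken as a deviation from its own mean over 24 arrays, the arrays of 6-week BPH/2J mice were the lowest group. The mean deviation was 0.07 ± 0.06 in BPH/2J and 0.03 ± 0.06 in BPN/3J at 26 weeks, and -0.10 ± 0.07 in BPH/2J and -0.01 ± 0.03 in BPN/3J at 6 weeks (SD, n = 6 each). The ranges of the strains overlapped at both ages. At 26 weeks, replicates 1 to 4 averaged 0.10 in BPH/2J and 0.06 in BPN/3J, while replicates 5 and 6 averaged 0.01 in BPH/2J and -0.02 in BPN/3J. Complex II had its own order: 26-week BPH/2J was highest at 0.13 ± 0.07, and 26-week BPN/3J, the other group of that age, was lowest at -0.08 ± 0.10.

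**Figure D1:**
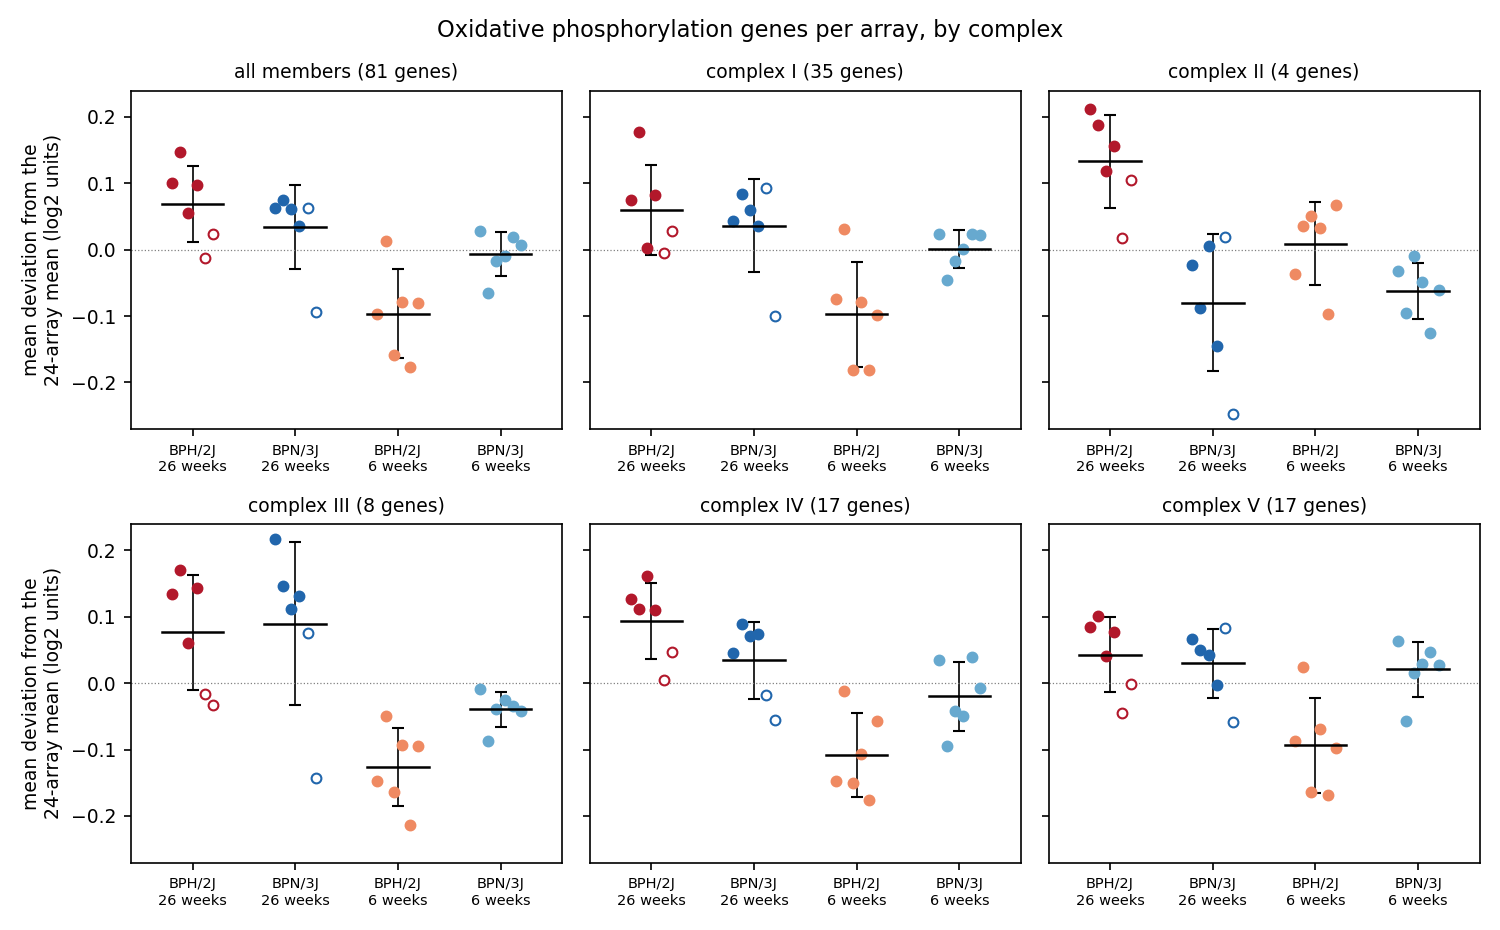
Mean deviation of the genes of each complex from their 24-array means (log2 units, vertical axis) on each array, by group. Points are arrays, open points are replicates 5 and 6 at 26 weeks, lines are group means and bars the SD (n = 6). The 6-week BPH/2J group has the lowest mean for all genes (-0.10) and complex II alone puts 26-week BPN/3J lowest (-0.08).

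The first comparison was that of the strains in young mice. At 6 weeks 8 of the 81 genes differed between BPH/2J and BPN/3J (limma, adjusted p below 0.05 over all 19937 genes), 1 higher in BPH/2J and 7 lower, and 7.42% of all genes were called. By direction 2.99% of all genes were called higher and 4.42% lower. Differences below 0 were found for 67 of the 81 genes (82.7%), against 45.5% of all genes, and the median difference was -0.09, against 0.01 over all genes. Apart from the 7 called, none of these 67 passed the test. The count of 8 was 4, 3 or 2 without BPH/2J replicate 1, 3 or 5, and 5 without BPN/3J replicate 1, 4 or 5, where 1034 to 1251 of all genes were called, against 1479. In complex I 33 of 35 differences were below 0, while in complex II 3 of 4 were above it. With the thalamus marker mean as a covariate, 61 of the 81 differences were below 0 and none passed the test (3 had an unadjusted p below 0.05). Of the 14 thalamus markers 10 were called lower in BPH/2J at this age, and of 11 hypothalamus markers 5 were called higher. Of 6 neuron markers 3 were called lower, with a list mean of 11.07 to 11.32 in BPH/2J and 11.32 to 11.41 in BPN/3J. Of 9 oligodendrocyte markers 4 were called lower, with a list mean of 9.41 to 10.26 in BPH/2J and 9.86 to 10.49 in BPN/3J. Also lower were 2 of 8 microglia markers and 1 of 6 of cortex and striatum, and 1 of 8 astrocyte markers and 1 of 4 of endothelium were higher. The part of these lists in the result was not tested. The thalamus covariate is itself lower in 6-week BPH/2J, so that it and the strain overlap in this fit, which does not measure the part of the thalamus.

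Ndufa3, an accessory subunit of the membrane arm of complex I, had a lowest, median and highest value of 9.58, 9.71 and 9.79 in 6-week BPH/2J and of 10.04, 10.10 and 10.19 in 6-week BPN/3J. All BPH/2J arrays were below all BPN/3J arrays. The difference was -0.41 ± 0.07 (SE, n = 6 per group; limma adjusted p = 0.000468), a ratio of 0.751, and it passed the test in all 24 fits that left out an array. It was -0.44 with the thalamus covariate (adjusted p = 0.0554). Uqcr10, a small subunit of complex III, had 8.69, 8.85 and 8.98 in BPH/2J and 9.22, 9.26 and 9.38 in BPN/3J, again with no overlap. Its difference was -0.44 ± 0.12 (adjusted p = 0.0224), and its adjusted p exceeded the threshold when BPN/3J replicate 1, BPH/2J replicate 3 or BPH/2J replicate 5 was left out (highest 0.0607). Over all genes 5.44% had no overlap between the strains at this age, and here 4 of 81 had none: these 2 lower, and Sdhc and Uqcrb higher.

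Uqcrb, a subunit of complex III near the ubiquinone site, was the gene called higher, with 10.99, 11.05 and 11.07 in BPH/2J and 10.78, 10.82 and 10.96 in BPN/3J. The difference was 0.20 ± 0.06 (adjusted p = 0.0365), and it did not pass without any of 8 of the 6-week arrays: BPH/2J replicates 1, 3, 4 and 5 and BPN/3J replicates 1, 3, 4 and 5 (highest adjusted p 0.0891). Ndufa10, an accessory subunit of complex I, had 10.84, 10.94 and 11.24 in BPH/2J and 11.11, 11.26 and 11.29 in BPN/3J. BPH/2J replicates 2 and 6 lay within the BPN/3J range. The difference was -0.24 ± 0.06 (adjusted p = 0.0188), it missed the threshold with BPH/2J replicate 1, 3 or 5 left out (highest adjusted p 0.0631), and it was -0.09 with the thalamus covariate (adjusted p = 0.956).

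The other 4 called genes were in complexes IV and V. Cox7a2, the widely expressed form of subunit VIIa, differed by -0.20 ± 0.06 (adjusted p = 0.0498), and 17 of 24 fits that left out an array lost the call (highest adjusted p 0.152, without BPH/2J replicate 3). Cox7b, the widely expressed form of subunit VIIb, differed by -0.21 ± 0.06 (adjusted p = 0.0321), and lost its call when any of BPH/2J replicates 1, 3 and 5 and BPN/3J replicates 4, 5 and 6 was left out (highest adjusted p 0.101). Atp5md, a small subunit of ATP synthase linked to its dimers, had 10.75, 11.15 and 11.44 in BPH/2J and 11.43, 11.64 and 11.74 in BPN/3J. The ranges overlapped slightly, and the difference of -0.46 ± 0.11 (adjusted p = 0.00752) passed in all 24 fits that left out an array. Atp5g1, which encodes the c subunit of the membrane ring of ATP synthase, differed by -0.27 ± 0.07 (adjusted p = 0.0166), but not without BPH/2J replicate 5 (-0.24, adjusted p = 0.0531), and a second probe set gave the opposite sign, as described further on. The largest difference of complex IV did not pass the test: Cox6a2, the heart and muscle isoform of subunit VIa, had 6.63, 7.25 and 7.53 in BPH/2J and 7.53, 7.70 and 8.03 in BPN/3J (-0.54 ± 0.17, adjusted p = 0.0566).

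The second comparison was that of the strains in adult mice with established hypertension in BPH/2J. At 26 weeks 4 of the 81 genes differed, Sdhb and Sdhc higher in BPH/2J and Ndufa3 and Uqcr10 lower, and 2.67% of all genes were called, 1.32% higher and 1.34% lower. Differences above 0 were found for 56 of the 81, with a median of 0.03, against 0.01 over all genes. None of the 81 was free of overlap between the strains, against 1.75% of all genes. Same-numbered 26-week arrays of both strains deviated together, but no label pairs the mice, and pairs cannot be told apart from the 2 sets of arrays. With the replicate number as a block within each age 7 genes were called, the same 4 with Ndufv3, Cox7b2 and Atp5e higher. Under this block 675 of all genes were called, against 532 without it. With replicates 1 to 4 alone 6 genes passed, 4 higher and 2 lower (2.27% of all genes), and with replicates 5 and 6 alone none did (1.42% of all genes, and 8 of the 81 at an unadjusted p below 0.05).

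Complex II, succinate dehydrogenase, also belongs to the citric acid cycle, and at 26 weeks all 4 of its genes had differences above 0, with a median of 0.22. Sdhb, the iron-sulfur subunit, had 9.87, 10.02 and 10.10 in BPH/2J and 9.54, 9.69 and 9.97 in BPN/3J. A single BPN/3J array, replicate 5, lay within the BPH/2J range. The difference was 0.29 ± 0.07 (adjusted p = 0.0144), a ratio of 1.23, and it passed in all 24 fits that left out an array. It was 0.31 with replicates 1 to 4 (adjusted p = 0.0233) and 0.27 with replicates 5 and 6 (adjusted p = 0.219).

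Sdhc, a membrane anchor of the complex, had 9.68, 10.23 and 10.32 in BPH/2J and 9.38, 9.76 and 9.87 in BPN/3J. BPH/2J replicates 1 to 4 were clear of every BPN/3J array, replicate 6 was level with the highest of them, and replicate 5 lay within their range. The difference was 0.39 ± 0.09 (adjusted p = 0.0189), a ratio of 1.31, but it missed the threshold when any of BPH/2J replicates 1, 2 and 4 and BPN/3J replicate 6 was left out (highest adjusted p 0.0622). Nor did it pass in the fit of only the 26-week groups. Sdha, the flavoprotein subunit, differed by 0.15 ± 0.05 (adjusted p = 0.169) and Sdhd, the other anchor, by 0.02 ± 0.07 (adjusted p = 0.958). At 6 weeks the complex II differences were 0.07 for Sdha, 0.08 for Sdhb, 0.17 for Sdhc and -0.04 for Sdhd, and none of the 4 passed the test.

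Uqcr10 had the largest strain difference among the 81 genes at 26 weeks, with 8.79, 8.98 and 9.12 in BPH/2J and 9.0, 9.83 and 10.06 in BPN/3J. BPN/3J replicates 1 to 4 lay far above every BPH/2J array, and BPN/3J replicate 6 lay among them. The difference was -0.71 ± 0.12 (adjusted p = 0.000475), a ratio of 0.612. It was -0.95 with replicates 1 to 4 and -0.22 with replicates 5 and 6 (adjusted p = 0.426), where BPN/3J averaged 9.18 and BPH/2J 8.97. Ndufa3 had 9.63, 9.79 and 10.03 in BPH/2J and 9.87, 10.11 and 10.37 in BPN/3J. Its difference was -0.32 ± 0.07 (adjusted p = 0.0109), -0.30 with replicates 1 to 4 and -0.35 with replicates 5 and 6 (adjusted p = 0.0795), so both sets of arrays gave a like size. Ndufa3 and Uqcr10 passed in all 24 fits that left out an array. In the fit of only the 26-week groups 1 of the 81 passed, so at least 1 of these 2 did not. Ndufa3 and Uqcr10 were the only genes among the 81 called at both ages in the main fit, each time lower in BPH/2J.

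**Figure D2:**
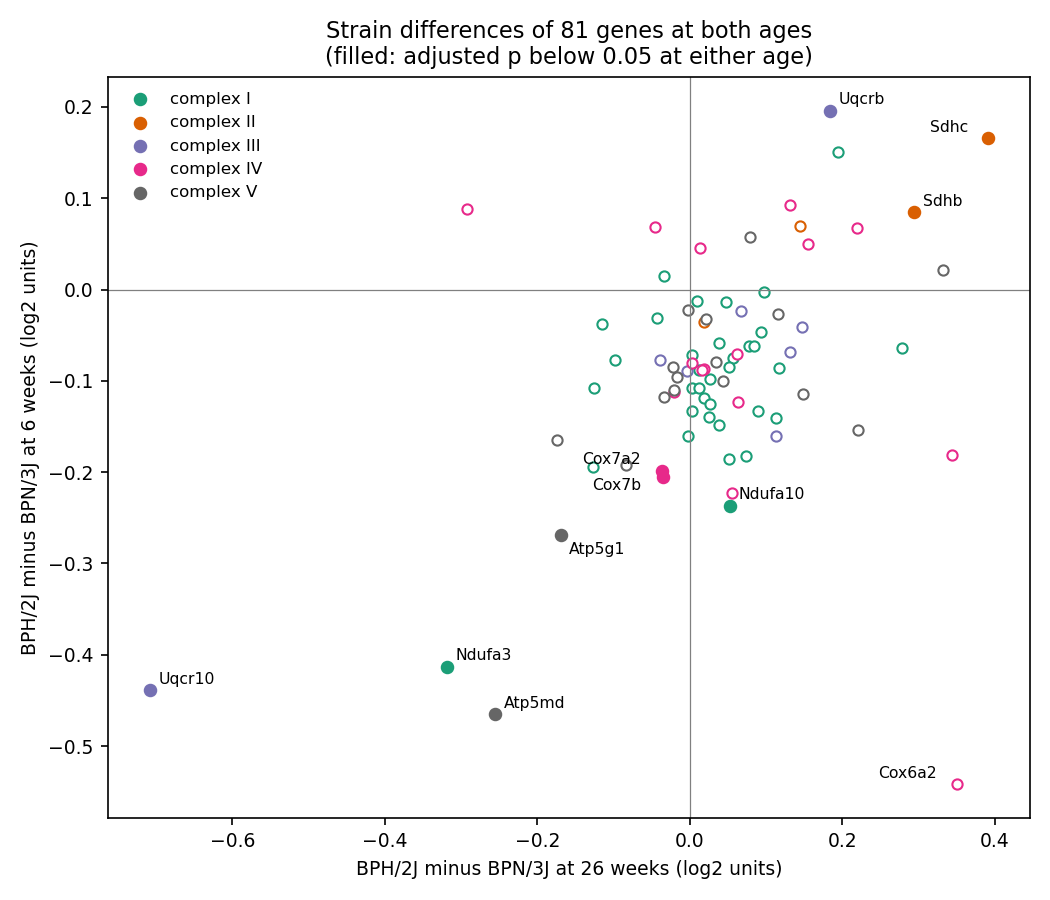
BPH/2J minus BPN/3J difference of each of the 81 genes at 26 weeks (horizontal, log2 units) and at 6 weeks (vertical, log2 units), coloured by complex. Filled points passed the limma test at either age. Ndufa3 (-0.32 and -0.41) and Uqcr10 (-0.71 and -0.44) are low on both axes, Sdhb and Sdhc lie to the right, and most points lie below 0 on the vertical axis only.

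Whether the strain difference itself changed with age was asked through the interaction, the strain difference at 26 weeks minus that at 6 weeks. None of the 81 genes passed, 0.0301% of all genes did, and 11 of the 81 had an unadjusted p below 0.05. Interaction values above 0 were found for 70 of the 81, with a median of 0.11, against 0.00 over all genes. In complex V 16 of 17 were above 0. Without 6-week BPH/2J replicate 2, 3 of the 81 and 496 of all genes passed, against 6 of all genes with it. The largest value was that of Cox6a2, 0.89 ± 0.25 (adjusted p = 0.111), which was 0.22 with the thalamus covariate (adjusted p = 0.973). Cox7b2, a testis isoform of subunit VIIb, had 0.53 ± 0.14 (adjusted p = 0.104). The lowest value was that of Cox8b, a muscle isoform of subunit VIII, -0.38 ± 0.35 (adjusted p = 0.772). The highest of complex I was Ndufv3, an accessory subunit of its matrix arm, with 0.34 ± 0.12 (adjusted p = 0.241). With the 2 sets of 26-week arrays given separate means, Cox6a2, Cox7b2 and Atp5d passed with values of 0.97, 0.50 and 0.37 (adjusted p = 0.0305, 0.0357 and 0.0357), and so did 304 of all genes.

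The remaining comparisons were those of age within each strain. In BPH/2J 29 of the 81 genes changed between 6 and 26 weeks, 27 higher at 26 weeks and 2 lower, and 16.9% of all genes were called. By direction 8.23% of all genes were called higher and 8.64% lower. The median difference was 0.13, against -0.03 over all genes. By complex the genes called higher were 14 of 35 in complex I, 1 of 4 in complex II, 3 of 8 in complex III, 7 of 17 in complex IV and 2 of 17 in complex V. Of the 27 called higher 19 passed in all 24 fits that left out an array, and neither of the 2 called lower did. Thalamus markers moved in the same contrast: 11 of 14 were higher at 26 weeks, and with their mean as a covariate the median difference of the 81 genes was 0.11, with none passing (18 at an unadjusted p below 0.05). In the same contrast 4 of 11 hypothalamus, 2 of 8 astrocyte, 1 of 9 oligodendrocyte and 1 of 7 choroid plexus markers were lower, and 2 of 8 microglia, 1 of 6 neuron and 1 of 6 cortex and striatum markers were higher. In BPN/3J 12 of the 81 genes changed, 6 higher and 6 lower, and 12.3% of all genes were called, 4.60% higher and 7.66% lower. The median difference there was 0.01, against -0.03 over all genes, and none of the 14 thalamus markers was called. Of 9 oligodendrocyte markers 5 were lower at 26 weeks in BPN/3J, with a list mean of 9.74 ± 0.23 at 26 weeks and 10.26 ± 0.22 at 6 weeks (SD, n = 6 each). Also lower there were 2 of 8 astrocyte markers, 1 of 6 neuron, 1 of 11 hypothalamus and 1 of 7 muscle markers. The part of these lists in the age results was not tested. The thalamus list averaged 8.75 ± 0.54 at 6 weeks and 9.67 ± 0.08 at 26 weeks in BPH/2J (SD, n = 6 each). The covariate and age therefore overlap in that fit, and the loss of calls there does not measure the part of the thalamus. The count of 12 in BPN/3J was 24 without 26-week replicate 5 and 27 without 26-week replicate 6, and 5 to 7 without 26-week replicate 1, 2, 3 or 4 or 6-week replicate 1, 3, 4 or 6. Over all genes the count of 2445 was 4230 without replicate 5 and 3379 without replicate 6, and 1034 to 2001 without each of the others named.

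**Figure D3:**
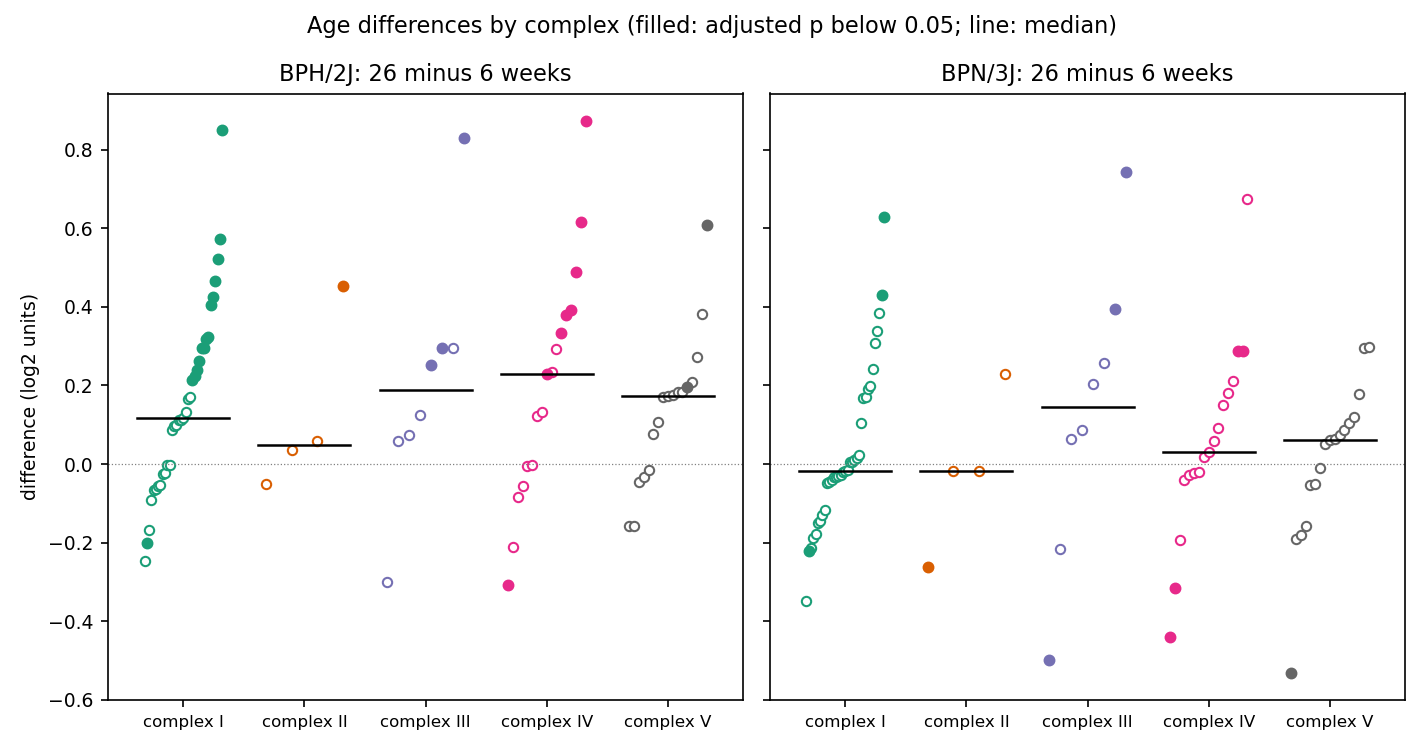
Difference between 26 and 6 weeks (log2 units, vertical axis) of each gene by complex, in BPH/2J (left) and BPN/3J (right). Filled points passed the limma test and lines are medians. In BPH/2J filled points lie mostly above 0 (27 of 29), and in BPN/3J they lie on both sides (6 each).

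Complex I, the largest with 35 of the 81 genes, gave 14 of the 27 genes called higher in BPH/2J, a share near that of complex IV (7 of 17). Ndufb10, an accessory subunit of the membrane arm, had 7.33, 8.31 and 8.53 in BPH/2J at 26 weeks and 6.96, 7.25 and 7.40 at 6 weeks. The 4 high arrays were replicates 1 to 4, and replicates 5 and 6 lay at or near the 6-week range. It rose by 0.85 ± 0.21 in BPH/2J (adjusted p = 0.00711), by 1.18 with replicates 1 to 4 and 0.19 with replicates 5 and 6 (adjusted p = 0.337). In BPN/3J it had 7.15, 8.30 and 8.40 at 26 weeks and 7.24, 7.34 and 7.43 at 6 weeks, a difference of 0.63 ± 0.21 (adjusted p = 0.0496) that 19 of 24 fits lost when an array was left out, and that was -0.12 with replicates 5 and 6. Ndufa1, another accessory subunit, rose by 0.57 ± 0.13 in BPH/2J (adjusted p = 0.00417) and by 0.43 ± 0.13 in BPN/3J (adjusted p = 0.0325), a call lost in 9 of 24 fits. With replicates 1 to 4 its difference was 0.77 in BPH/2J and 0.64 in BPN/3J, and with replicates 5 and 6 it was 0.18 (adjusted p = 0.322) and 0.02 (adjusted p = 0.948).

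Some complex I genes held their rise in both sets of arrays. Ndufa10 had 11.21, 11.28 and 11.40 in BPH/2J at 26 weeks, against 10.84, 10.94 and 11.24 at 6 weeks. It rose by 0.29 ± 0.06 (adjusted p = 0.0027), by 0.28 with replicates 1 to 4 and 0.33 with replicates 5 and 6 (adjusted p = 0.0361), the only one of the 81 called with replicates 5 and 6 alone. With those 2 arrays 3.46% of all genes were called in BPH/2J. Ndufv1, the core subunit that binds NADH and flavin mononucleotide, rose by 0.22 ± 0.06 (adjusted p = 0.0173), with 0.20 in replicates 1 to 4 and 0.26 in replicates 5 and 6, though not without 6-week BPH/2J replicate 3 (adjusted p = 0.0541). Ndufb8, an accessory subunit of the membrane arm, rose by 0.43 ± 0.08 (adjusted p = 0.00141), with 0.49 in replicates 1 to 4 and 0.29 in replicates 5 and 6 (adjusted p = 0.123). Ndufv1 and Ndufb8 were among the 5 genes whose 26-week BPH/2J arrays were all above the 6-week ones, with Uqcrh, Cox6a2 and Cox7a1, against 1.47% of all genes higher without overlap. Ndufc1 was the complex I gene called lower, with -0.20 ± 0.06 in BPH/2J (adjusted p = 0.035) and -0.22 ± 0.06 in BPN/3J (adjusted p = 0.0285). Both calls were lost in some of the fits that left out an array. The highest adjusted p was 0.104 in BPH/2J, without 26-week BPH/2J replicate 3, and 0.0792 in BPN/3J, without 26-week BPN/3J replicate 4.

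In complex III, Uqcrh, the hinge protein beside cytochrome c1, had 10.39, 11.36 and 11.44 in BPH/2J at 26 weeks and 10.12, 10.27 and 10.31 at 6 weeks. Replicates 1 to 4 at 26 weeks averaged 11.40 and replicates 5 and 6 averaged 10.43. The rise was 0.83 ± 0.18 (adjusted p = 0.00323), a ratio of 1.78, and the difference was 1.15 with replicates 1 to 4 and 0.18 with replicates 5 and 6 (adjusted p = 0.321). In BPN/3J it was 0.74 ± 0.18 (adjusted p = 0.013), 1.02 with replicates 1 to 4 and 0.18 with replicates 5 and 6 (adjusted p = 0.366). Uqcrc1, a core protein, fell in BPN/3J, with 10.76, 10.84 and 11.54 at 26 weeks and 11.35, 11.51 and 11.54 at 6 weeks (-0.50 ± 0.12, adjusted p = 0.0126; -0.15 and adjusted p = 0.431 with replicates 5 and 6), while its difference in BPH/2J was -0.30 ± 0.12 (adjusted p = 0.0903). Uqcr10 rose in BPN/3J by 0.39 ± 0.12 (adjusted p = 0.0336), a call lost in 10 of 24 fits, and its value was 0.64 with replicates 1 to 4 and -0.10 with replicates 5 and 6.

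In complex IV, Cox6a2 had the largest age difference of the 81 genes in BPH/2J, with 7.83, 8.09 and 8.38 at 26 weeks and 6.63, 7.25 and 7.53 at 6 weeks. No 26-week array was as low as any 6-week array. The difference was 0.87 ± 0.17 (adjusted p = 0.00156), 0.98 with replicates 1 to 4 and 0.66 with replicates 5 and 6 (adjusted p = 0.0591). With the thalamus covariate it was 0.19 (adjusted p = 0.79). In BPN/3J the difference was -0.02 ± 0.17 (adjusted p = 0.953), 0.24 with replicates 1 to 4 (adjusted p = 0.252) and -0.54 with replicates 5 and 6 (adjusted p = 0.173). The 7 muscle markers, such as Ckm and Acta1, averaged 5.68 ± 0.16 at 26 weeks and 5.75 ± 0.10 at 6 weeks in BPH/2J (SD, n = 6 each), and none of the 7 passed the test there. Cox6a1, the widely expressed isoform, rose by 0.49 ± 0.08 in BPH/2J (adjusted p = 0.000421), against a difference of 0.21 ± 0.08 in BPN/3J (adjusted p = 0.0883). Cox5b, which faces the matrix, fell in both strains, with a difference of -0.31 ± 0.11 in BPH/2J (adjusted p = 0.0454), a call lost in 15 of 24 fits, and of -0.44 ± 0.11 in BPN/3J (adjusted p = 0.0117). With replicates 1 to 4 the difference was -0.44 in BPH/2J and -0.61 in BPN/3J, and with replicates 5 and 6 it was -0.05 (adjusted p = 0.846) and -0.09 (adjusted p = 0.668).

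In complex V, Atp5e, the epsilon subunit of the soluble F1 part, rose by 0.61 ± 0.16 in BPH/2J (adjusted p = 0.00927), with 0.93 in replicates 1 to 4 and -0.04 in replicates 5 and 6. Atp5d, the delta subunit of F1, had 10.70, 10.82 and 11.43 in BPN/3J at 26 weeks and 11.45, 11.51 and 11.56 at 6 weeks. All 26-week arrays were below all 6-week arrays, a pattern shared with Ndufa13 alone among the 81 (-0.21 ± 0.07, adjusted p = 0.0552), against 3.32% of all genes lower without overlap. It fell by 0.53 ± 0.12 (adjusted p = 0.00908), by 0.72 with replicates 1 to 4 and by 0.14 with replicates 5 and 6 (adjusted p = 0.421). In BPH/2J its difference was -0.16 ± 0.12 (adjusted p = 0.39). The genes called with age in both strains were 7, all in the same direction: Cox4i1, Cox6b1, Ndufa1, Ndufb10 and Uqcrh higher, Cox5b and Ndufc1 lower. They are 7 of the 29 called in BPH/2J and 7 of the 12 called in BPN/3J, and none of the 7 passed with replicates 5 and 6 alone in either strain.

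**Figure D4:**
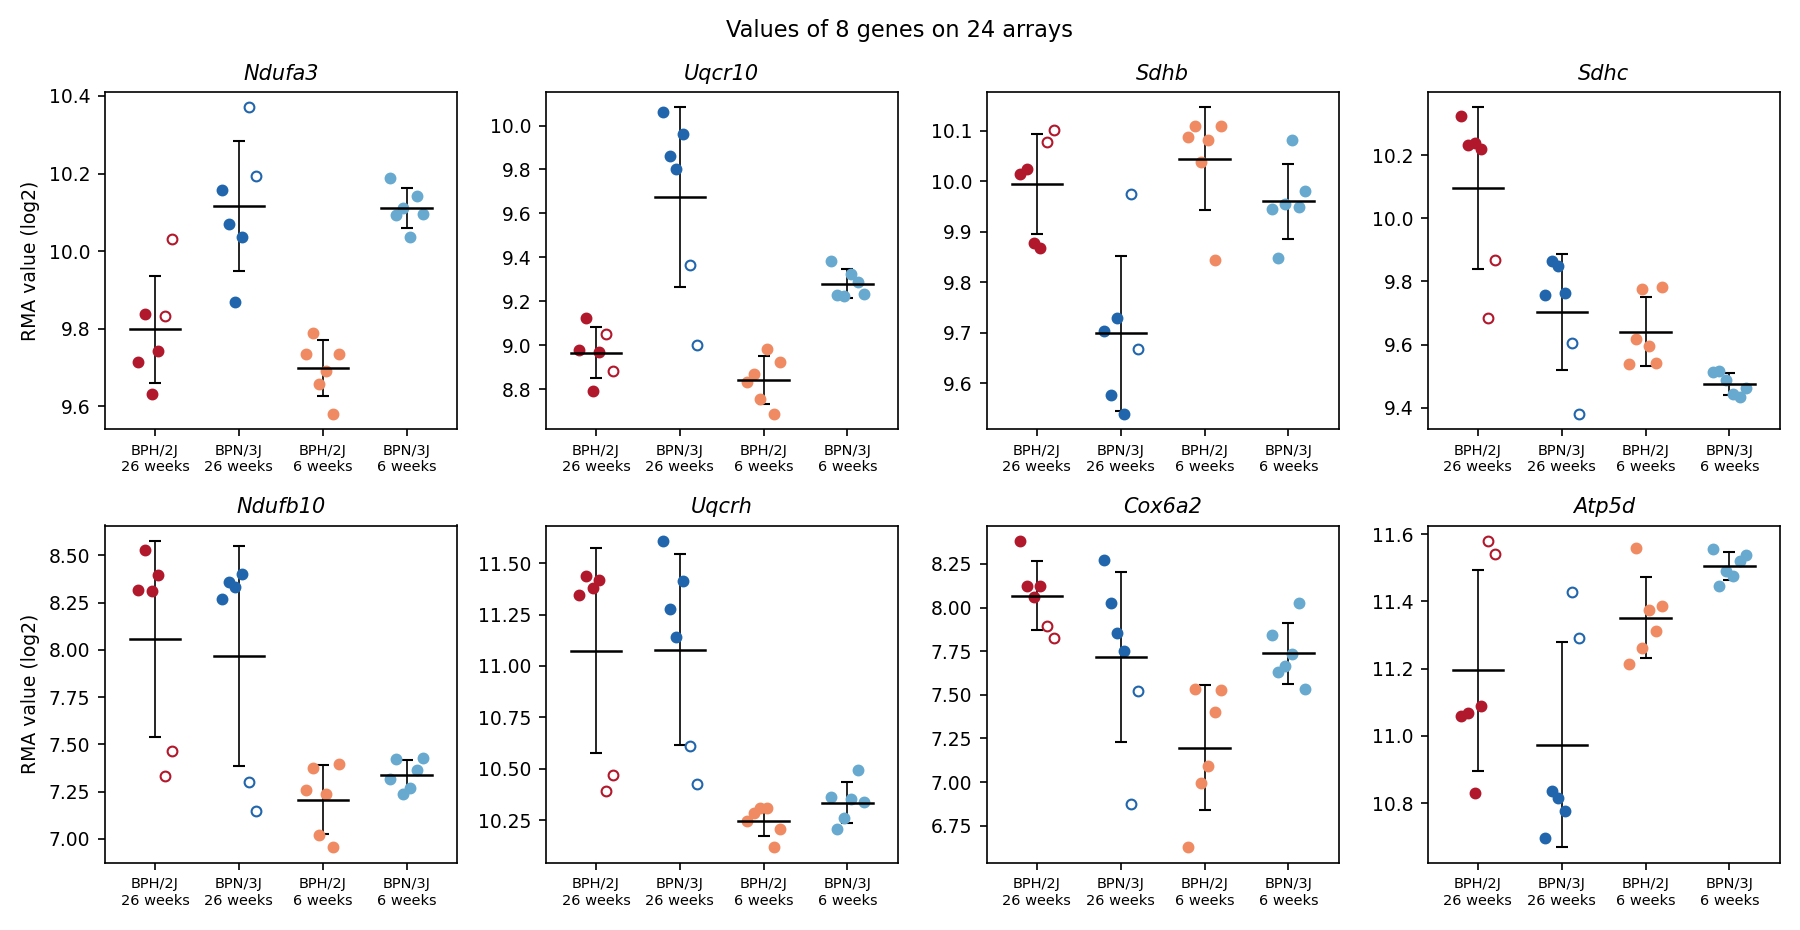
RMA values (log2) of 8 genes on each array, by group. Points are arrays, open points are replicates 5 and 6 at 26 weeks, lines are means and bars the SD (n = 6). Ndufa3 is lower in BPH/2J at both ages, Sdhb is lowest in 26-week BPN/3J, and in Ndufb10, Uqcrh and Atp5d the open points lie near the 6-week groups.

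The 2 sets of 26-week arrays were then compared with each other. In both strains 21 of the 81 genes had replicates 5 and 6 below replicates 1 to 4, and 15 had them above, while none was below in one strain and above in the other. Of all genes 11.3% were below in both strains, 7.61% were above in both, and 95 of 19937 went opposite ways. The 21 included Uqcrh, Ndufb10, Ndufa1, Atp5e, Sdhc, Cox4i1 and Cox6b1, and the 15 included Uqcrc1, Cox5b, Cox8a, Atp5d and the genes of the alpha and beta subunits of ATP synthase, Atp5a1 and Atp5b. The 21 came from all 5 complexes, and the 15 from all but complex II. The age calls follow these sets: with replicates 1 to 4 there were 37 genes higher and 9 lower in BPH/2J (37.6% of all genes called) and 24 higher and 18 lower in BPN/3J (31.8% of all genes). With replicates 5 and 6 there was 1 higher in BPH/2J and none in BPN/3J (0.466% of all genes; 6 of the 81 at an unadjusted p below 0.05). A set of 2 arrays gives wider errors than a set of 4, so that fewer calls there do not show that the genes were unchanged.

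Several subunits exist in isoforms, which are given here by family. The widely expressed Cox4i1 rose with age by 0.39 ± 0.08 in BPH/2J (adjusted p = 0.0016) and 0.29 ± 0.08 in BPN/3J (adjusted p = 0.0209), and Cox4i2, its hypoxia-linked partner, differed by -0.06 ± 0.07 and -0.02 ± 0.07 and was not called. Cox7a1, the muscle form of subunit VIIa, had 7.03, 7.09 and 7.19 in BPH/2J at 26 weeks and 6.44, 6.80 and 6.96 at 6 weeks, with no overlap. It rose by 0.33 ± 0.07 (adjusted p = 0.00213), and both sets of arrays gave 0.33. Cox7a2 differed with age by 0.13 ± 0.06 in BPH/2J (adjusted p = 0.142), and Cox7a2l, which joins complexes III and IV into supercomplexes, by 0.23 ± 0.10 (adjusted p = 0.0986).

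Cox7b rose with age in BPH/2J by 0.23 ± 0.06 (adjusted p = 0.0099) and Cox7b2 by 0.62 ± 0.10 (adjusted p = 0.000317). Cox7b2 is dim here, with 4.99, 5.40 and 5.69 at 26 weeks and 4.51, 4.78 and 5.04 at 6 weeks, and only 3 of its 6 arrays of 6-week BPH/2J were above the median of unnamed probe sets. Cox8a, the widely expressed subunit VIII, fell with age in BPN/3J by 0.32 ± 0.10 (adjusted p = 0.0364), a call lost in 9 of 24 fits. The muscle form Cox8b had no called contrast but a wide spread at 26 weeks, from 5.09 to 6.87 in BPH/2J and from 5.36 to 6.83 in BPN/3J. The testis forms Cox6b2 and Cox8c, and Ndufa4 and its hypoxia-linked relative Ndufa4l2, passed in no contrast. Cox6b1 rose in BPH/2J by 0.38 ± 0.09 (adjusted p = 0.00551) and in BPN/3J by 0.29 ± 0.09 (adjusted p = 0.0374, lost in 10 of 24 fits).

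Genes of this kind often have near-identical processed copies elsewhere in the genome, and a probe set may read those. The place of a probe set was judged from the annotated genes of the 5 probe sets numbered before it and the 5 after it. For 12 of the 81 genes the probe set used was not placed at the gene's own locus in this way, among them Uqcrb, Ndufa3, Cox7b, Atp5g1 and Atp5md of the called genes. Ndufa3 and Uqcrb had no probe set so placed. With a probe set at the gene's locus where there was one, a choice made after the values were seen, 6 genes were called at 6 weeks: Uqcrb and Atp5g1 higher and Ndufa3, Ndufa10, Uqcr10 and Cox7a2 lower. Over all genes 1486 were called with this choice, against 1479.

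Atp5g1 showed the widest split between probe sets in the strain comparison. Its brighter probe set had means of 9.97 ± 0.10 in 6-week BPH/2J and 10.24 ± 0.14 in 6-week BPN/3J, a difference of -0.27 (SD, n = 6 each). The other, placed at the gene, had 7.51 ± 0.22 in BPH/2J and 6.95 ± 0.29 in BPN/3J, a difference of 0.56 (adjusted p = 0.003), and at 26 weeks 0.51. Atp5md kept its sign with the probe set at the gene (-0.43, adjusted p = 0.183), and so did Cox7b (-0.17, adjusted p = 0.343), but neither passed. Atp5g2, another c subunit gene, had 3 probe sets that moved with age in BPH/2J by -0.16, 1.97 and -0.59, and in BPN/3J by -0.18, 1.89 and -0.79. The probe set at -0.16 is the brightest and lay among genes of chromosome 7, that at 1.97 among genes of chromosome 17, and that at -0.59 at the gene itself on chromosome 15. Atp5g3, the remaining c subunit gene, passed in no contrast.

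**Figure D5:**
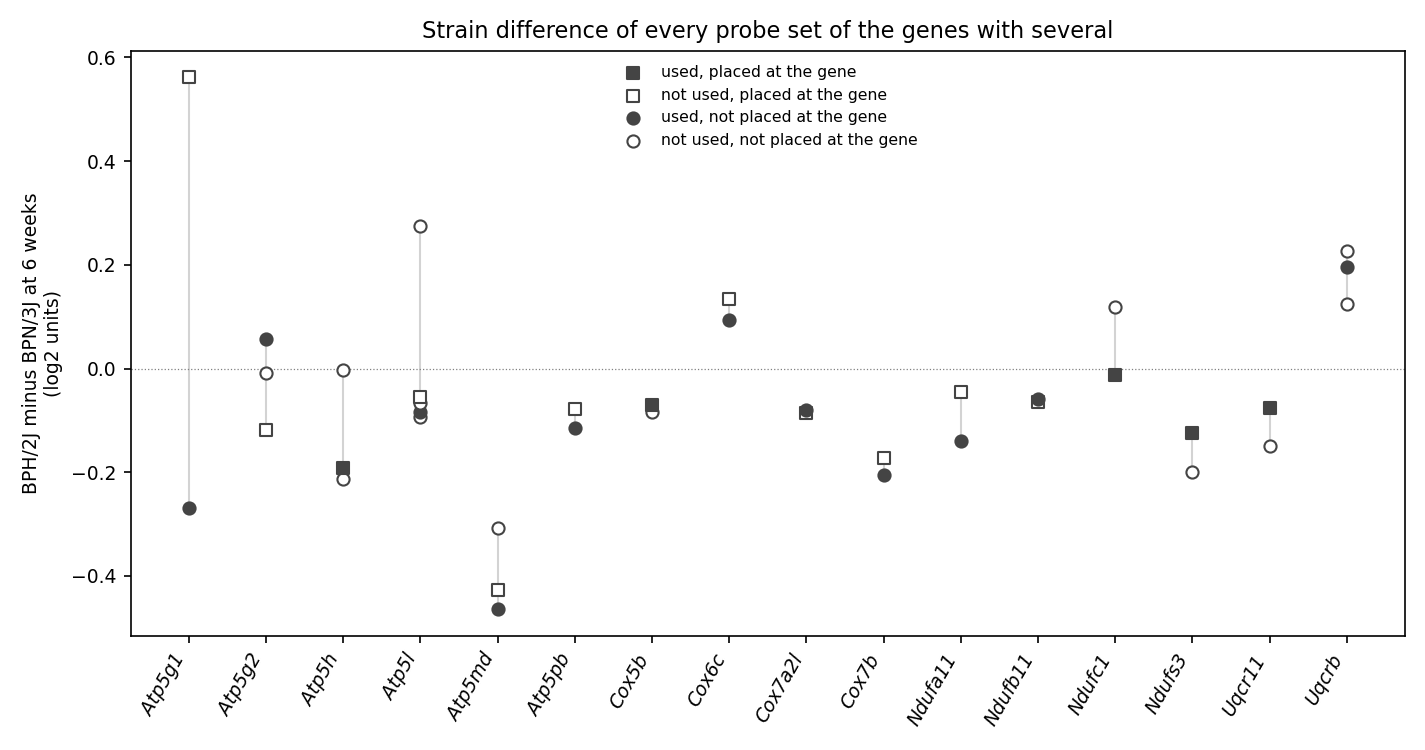
Strain difference at 6 weeks (BPH/2J minus BPN/3J, log2 units, vertical axis) of every probe set of the 16 genes with several. Filled symbols are the probe sets used and squares are those placed at the gene's own locus. The Atp5g1 probe sets lie at -0.27 and 0.56, on opposite sides of 0, and the 3 of Atp5md all lie below 0.

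Genes that build or control the chain were listed apart from its subunits. Of 44 assembly factors measured, 7 were called lower and none higher in BPH/2J at 6 weeks, against 4.42% and 2.99% of all genes. At 26 weeks 2 were higher and 3 lower, against 1.32% and 1.34% of all genes. The median difference of the assembly factors at 6 weeks was -0.05, against 0.01 over all genes. Uqcc1, an assembly factor of complex III, averaged 8.46 in BPH/2J and 9.06 in BPN/3J at 6 weeks, a difference of -0.60 ± 0.07 (adjusted p = 1.66e-06). At 26 weeks its difference was -0.47 ± 0.07 (adjusted p = 6.2e-05). Lyrm7, which inserts the Rieske protein into complex III, differed by -0.58 ± 0.09 at 6 weeks (adjusted p = 0.000197) and by -0.74 ± 0.09 at 26 weeks (adjusted p = 9.37e-06), and was dim, with 4.69 in BPH/2J and 5.43 in BPN/3J at 26 weeks. Atpaf2, an assembly factor of F1, differed by -0.50 ± 0.08 at 6 weeks (adjusted p = 0.000185). With age 6 assembly factors rose and 2 fell in BPH/2J (8.23% and 8.64% of all genes), and 3 rose and 4 fell in BPN/3J (4.60% and 7.66%). Atpaf1, another F1 factor, was among those that rose in BPH/2J (0.59 ± 0.09, adjusted p = 0.000276). With the thalamus covariate 165 of all genes were called at 6 weeks, against 1479, and 8 with age in BPH/2J, against 3362. Values of single assembly factors in that fit are not given here.

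Of 21 regulators of mitochondrial genes, 2 were called lower at 6 weeks (4.42% of all genes) and 1 at 26 weeks (1.34%). Ppargc1a, the coactivator PGC-1α, averaged 8.16 in BPH/2J and 8.54 in BPN/3J at 6 weeks (-0.38 ± 0.11, adjusted p = 0.0329). It rose with age in BPH/2J by 0.53 ± 0.11 (adjusted p = 0.00202), as did Esrrg, a nuclear receptor partner of that coactivator (0.57 ± 0.12, adjusted p = 0.00304). The thalamus list was low in 6-week BPH/2J too, at 8.75, against 9.66 in 6-week BPN/3J and 9.67 in 26-week BPH/2J. Values of the genes of this paragraph with the thalamus covariate are not given here. In all 4 regulators rose and 1 fell with age in BPH/2J (8.23% and 8.64% of all genes), and 2 fell in BPN/3J (7.66%). Mterf3, a factor that acts on mitochondrial DNA, was lower in BPH/2J at 6 weeks (-0.40 ± 0.09, adjusted p = 0.00647) and at 26 weeks (-0.37 ± 0.09, adjusted p = 0.0245). A further list of 19 symbols was meant for subunits and partners outside the symbol rule, and 4 were measured under those symbols. The 19 are listed symbols and not a count of the subunits left out. Of the 4, Cycs, cytochrome c itself, rose with age in BPH/2J (0.32 ± 0.09, adjusted p = 0.0147). The subunits encoded by mitochondrial DNA were not analysed here.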

How the data were processed

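Gene expression was measured in 24 mouse hypothalami, in 4 groups of 6 taken from the sample titles. The authors deposited log2 values for 34760 probe sets. RMA was the method used, per the submitters' processing notes, where limma is also listed, and versions and genome build were not given in the sources used here. Its quantile step matches probe intensities across arrays, which takes away most of any change common to all genes. Arrays carry no depth, so precision is limited by how many there are. Names came from the platform's annotation table: 21640 had 1 symbol, 1321 several and 11799 none. A gene was its single-symbol probe set with the highest mean, which gave 19937 genes; 6 probe sets with several symbols that match the symbol rule were left out. No value filter was applied, so all 81 genes were tested; 16101 genes were above the array median of the unnamed probe sets on at least 6 arrays, all 81 among them.

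The model, in limma 3.58.1 (R 4.3.3), had a mean per group over all 24 arrays and Benjamini-Hochberg adjustment over all genes of a contrast (threshold 0.05). The code was checked on simulated data. Named genes are those called between strains or in the interaction, up to 6 each way per age contrast, the isoform families, all of complex II, the extremes of each complex, and up to 3 called genes per pathway list and contrast. Other genes that are named were chosen after their values were seen, namely Ndufa13, Ndufb8 and Ndufv1 and those listed for the 2 sets of 26-week arrays. The genes and lists were chosen with earlier results of these data known. Deviations of same-numbered 26-week arrays correlated at 0.13 to 0.44 between the strains, and on that ground the numbers were used as a block. No label pairs them, and BPH/2J replicates 3, 4 and 6 went best with BPN/3J replicates 4, 2 and 5. Each of these lay in the same set of 26-week arrays, so pairs and sets cannot be told apart here. In each other pair of groups at least 2 of the 6 numbers were at or below 0.1, as between the strains at 6 weeks (-0.23 to 0.05) and between the ages in BPH/2J (0.01 to 0.41), and these were not taken as paired. Alternatives were the probe set rule, the dim-gene filter, renewed quantile normalization, moderation with a trend, only the groups compared, replicate number as a block, the 2 sets of 26-week arrays, a thalamus covariate, and leaving out each array. Arrays were of separate mice, so errors cover differences between mice.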

Additional observations from a re-analysis of the deposited data

Results flagged for a closer look

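Outlying arrays were looked for in 192 groups of 6 arrays. These were 42 genes in 4 groups, and the mean deviation of all 81 genes and of each complex. In 13 of the 192 the highest or lowest array lay far from the other 5. By chance about 1 in 20 is expected, so 13 is not far above that share. The means share their genes with the single genes, so the groups are not independent. On BPN/3J replicate 6 at 26 weeks the mean deviation of the 81 genes was -0.0933, with the other arrays of the group at 0.0362 to 0.0755, and that of complex I was -0.0997, with the others at 0.0355 to 0.0932. In 6-week BPN/3J, replicate 2 was low for Ndufa10 at 11.11 (others 11.24 to 11.29), Uqcrc1 at 11.35 (others 11.48 to 11.54) and Cox6c at 11.46 (others 11.72 to 11.80), and replicate 3 was high for Sdha at 11.70 (others 11.55 to 11.58). In 6-week BPH/2J, replicate 2 was high for Ndufa4 at 12.04 (others 11.84 to 11.92) and Ndufs4 at 10.19 (others 9.84 to 9.89). In the same group replicate 5 was low for Sdhb at 9.85 (others 10.04 to 10.11) and Cox7a1 at 6.44 (others 6.77 to 6.96), and replicate 3 was low for Atp5g3 at 11.35 (others 11.60 to 11.72). At 26 weeks, BPH/2J replicate 5 was low for Atp5g3 at 11.52 (others 11.68 to 11.73) and BPN/3J replicate 5 was high for Ndufc1 at 9.79 (others 9.42 to 9.55).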

How the results depend on the processing

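The median differences of the 81 genes moved by less than the spread between arrays (0.056) under every alternative run. That spread is wider than the medians between strains at 26 weeks (0.027) and with age in BPN/3J (0.010). With replicates 5 and 6 alone these 2 medians were 0.0065 and -0.011, so the second turned sign. Leaving out 1 array at a time gave medians of -0.11 to -0.06 between strains at 6 weeks, 0.01 to 0.05 at 26 weeks, 0.09 to 0.15 in the interaction, 0.12 to 0.17 with age in BPH/2J and 0.00 to 0.02 with age in BPN/3J. The counts of called genes ran from 2 to 12, 3 to 6, 0 to 3, 20 to 35 and 5 to 27 of the 81 in those contrasts, and from 1034 to 1961, 428 to 721, 0 to 496, 2138 to 4838 and 1034 to 4230 of all genes. The mean of all probe sets of a gene gave 5 calls among the 81 at 6 weeks. The fit of only the groups compared gave 2322 calls over all genes at 6 weeks, and 1 of the 81 and 248 over all genes at 26 weeks. The thalamus covariate gave 0 of the 81 and 165 of all genes at 6 weeks, 0 of all genes in the interaction, and 0 and 8 with age in BPH/2J. With 26-week replicates 1 to 4 alone there were 46 calls among the 81 and 7502 over all genes with age in BPH/2J, and 42 and 6341 in BPN/3J. With replicates 5 and 6 alone there were 1 and 689 in BPH/2J, 0 and 93 in BPN/3J, 0 and 283 between strains, and 13 over all genes in the interaction. Separate means for the 2 sets gave 8 and 885 between strains at 26 weeks, 3 and 304 in the interaction and 19 of the 81 with age in BPN/3J. The replicate block gave 19 of the 81 with age in BPN/3J and 27 over all genes in the interaction. The replicate number as a block within each age, an alternative chosen after seeing the data, gave 7 of the 81 between strains at 26 weeks. It gave 49 of all genes in the interaction, against 6 without a block. Over all genes the interaction count was 23 without dim genes, 31 with trend and robust moderation and 34 after a further quantile normalization. The sign turned in some cases, of which those given here are examples and not a full list. It turned for Atp5g1 at 6 weeks with the mean of its probe sets (0.15). It also turned for Atp5g1 with the probe set placed at the gene, also chosen after seeing the data (0.56, and 0.51 at 26 weeks). For Atp5g2 with age in BPH/2J it turned with the mean of its probe sets (0.41). With replicates 5 and 6 alone it turned for Atp5e in BPH/2J (-0.042) and for Ndufb10 (-0.12) and Uqcr10 (-0.10) in BPN/3J. The cause was not tested, other than that fewer arrays give wider errors. Probe sets just above the level of unnamed ones, such as those of Cox7b2, limit what small differences can show.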

Other observations

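Genes around the respiratory chain were listed as well. Their values with the thalamus covariate are not given. With it 165 of all genes were called at 6 weeks, against 1479, and 8 with age in BPH/2J, against 3362. Among 14 glycolysis genes, 3 differed between BPH/2J and BPN/3J at 6 weeks (1 higher, 2 lower) and 1 at 26 weeks (higher). The shares called over all genes were 7.42% at 6 weeks and 2.67% at 26 weeks. Ldha, the subunit A gene of lactate dehydrogenase, was higher in BPH/2J at both ages, by 0.41 ± 0.06 at 6 weeks (limma adjusted p = 5.4e-05) and 0.30 ± 0.06 at 26 weeks (adjusted p = 0.00305). Ldhb, which encodes its subunit B, was lower in BPH/2J at 6 weeks (-0.37 ± 0.07, adjusted p = 0.000678). Of 19 genes of the citric acid cycle and pyruvate entry only Idh2, the mitochondrial NADP-dependent isocitrate dehydrogenase, was called between strains, higher in BPH/2J by 0.28 ± 0.06 at 6 weeks (adjusted p = 0.0036) and by 0.22 ± 0.06 at 26 weeks (adjusted p = 0.0448). With age 3 of the 19 rose in BPH/2J (8.23% of all genes) and 3 fell in BPN/3J (7.66%), among them Cs, citrate synthase (-0.41 ± 0.11 in BPN/3J, adjusted p = 0.023).

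Of 12 genes of coenzyme Q synthesis, the route to ubiquinone, BPH/2J had 2 above BPN/3J and 1 below it by the test at 6 weeks, and 1 above it at 26 weeks. At 6 weeks 2.99% of all genes were called higher and 4.42% lower, and at 26 weeks 1.32% were called higher. Coq7, a hydroxylase of that route, averaged 8.72 in BPH/2J and 8.22 in BPN/3J at 26 weeks (0.50 ± 0.07, adjusted p = 1.46e-05). Coq8b, a kinase-like protein, averaged 8.11 in BPH/2J and 7.63 in BPN/3J at 6 weeks (0.48 ± 0.07, adjusted p = 9.45e-05), and 7.57 in BPH/2J and 7.65 in BPN/3J at 26 weeks, with an interaction of -0.56 ± 0.10 (adjusted p = 0.0459). Of 19 genes of mitochondrial carriers and import 2 were called higher in BPH/2J at each age and none lower. Slc25a31, an ATP and ADP carrier known from testis, averaged 5.49 in BPH/2J and 3.88 in BPN/3J at 26 weeks (1.62 ± 0.14, adjusted p = 6.37e-09), so that in BPN/3J it lay below the array medians of unnamed probe sets. Timm17a, a part of the inner membrane import channel, was higher by 0.39 ± 0.09 at 6 weeks (adjusted p = 0.00574) and 0.42 ± 0.09 at 26 weeks (adjusted p = 0.0055).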
